A study of Mus musculus with 23 samples.

Results

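Testis RNA of 2 inbred mouse strains was compared: all 8 libraries of NZO/HlLtJ males against all 7 libraries of CAST/EiJ males, with diet kept as a covariate, 15 of the 23 libraries sequenced. NZO/HlLtJ is a laboratory strain that becomes obese and, in many males, diabetic; CAST/EiJ is a wild-derived strain of another mouse subspecies that stays lean. Mice ate a diet with 10% or 44% fat, each with added fibre, from 6 weeks of age, and tissue was taken at 16 weeks. The NZO/HlLtJ groups held 4 libraries on 10% fat and 4 on 44% fat, and the CAST/EiJ groups held 3 and 4. The third strain of the study, C57BL/6J (8 libraries, the same diets and ages), is given beside some values as a level without a test. Members were chosen by the strain in the labels and by nothing measured. Nothing in the labels says how many mice stand behind a library, so p-values measure the spread between these libraries.

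The testis makes sperm in tubules lined by Sertoli cells, which feed and enclose the germ cells. Germ cells pass from spermatogonia through meiosis as spermatocytes and become round and then elongating spermatids, which build an acrosome and a flagellum and pack their DNA with protamines. Leydig cells between the tubules turn cholesterol into testosterone, and contractile myoid cells, vessels and macrophages complete the tissue.

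The libraries held 31.9 M to 43.4 M assigned counts (M, 1000000 counts) in NZO/HlLtJ and 33.0 M to 78.7 M in CAST/EiJ. Levels are given in counts per 1000000 (CPM), as mean ± SD over the 8 and 7 libraries or as lowest, median and highest library; they are not corrected for transcript length, so levels of different genes are not compared. The first principal component of the 15 libraries held 79.4% of the variance and separated the strains, with CAST/EiJ between -100.4 and -97.2 and NZO/HlLtJ between 84.5 and 87.8. CAST/EiJ replicate 2 on 44% fat held 99.0 CPM of Crisp1, an epididymal secretory gene, against at most 0.188 in the other 6 CAST/EiJ libraries. NZO/HlLtJ replicate 3 on 44% fat and replicate 4 on 10% fat stood apart on the second component (37.5 and 24.4), which held 2.19% of the variance. Beside the counts of higher and lower members of a list, those with these 3 libraries left out follow in the same order. These libraries were not the only ones far out. NZO/HlLtJ replicates 1 and 3 on 10% fat lay at -21.1 and -22.5 on the second component. CAST/EiJ replicate 3 on 44% fat lay at 32.0 on the third (1.93% of the variance). CAST/EiJ replicate 2 on 10% fat lay at 34.6 on the fourth (1.77%).

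Of 28861 genes in the table, 22873 had enough counts to test. At an adjusted p under 0.05 in edgeR's quasi-likelihood test, 16460 genes differed between the strains, 72.0% of those tested: 9010 were higher in NZO/HlLtJ (39.4%) and 7450 lower (32.6%). With so many genes called, a list in which about 39.4% of members were higher and 32.6% lower is at the background. Most differences were small. The median size among the called genes was 0.59 on the log2 scale, 49.5% of them were less than 1.5-fold apart, and 5165 were at least 2-fold apart (3097 higher, 2068 lower). The median log2 fold change over all genes tested was 0.06, and scaling by library totals alone moved it to 0.17. In 10047 genes (43.9%) the 8 NZO/HlLtJ and 7 CAST/EiJ libraries did not overlap. The sample ID numbers fall into 3 runs, which the labels do not call batches. Within them the test called 13384 genes in the first (4 NZO/HlLtJ and 2 CAST/EiJ libraries), 11684 in the second (2 and 3) and 7722 in the third (2 and 2), and the genes named here whose call was lost in a run are given in the closing section. At least 8-fold differences were found in 897 genes higher (3.92%) and 438 lower (1.91%) in NZO/HlLtJ.

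**Figure D1:**
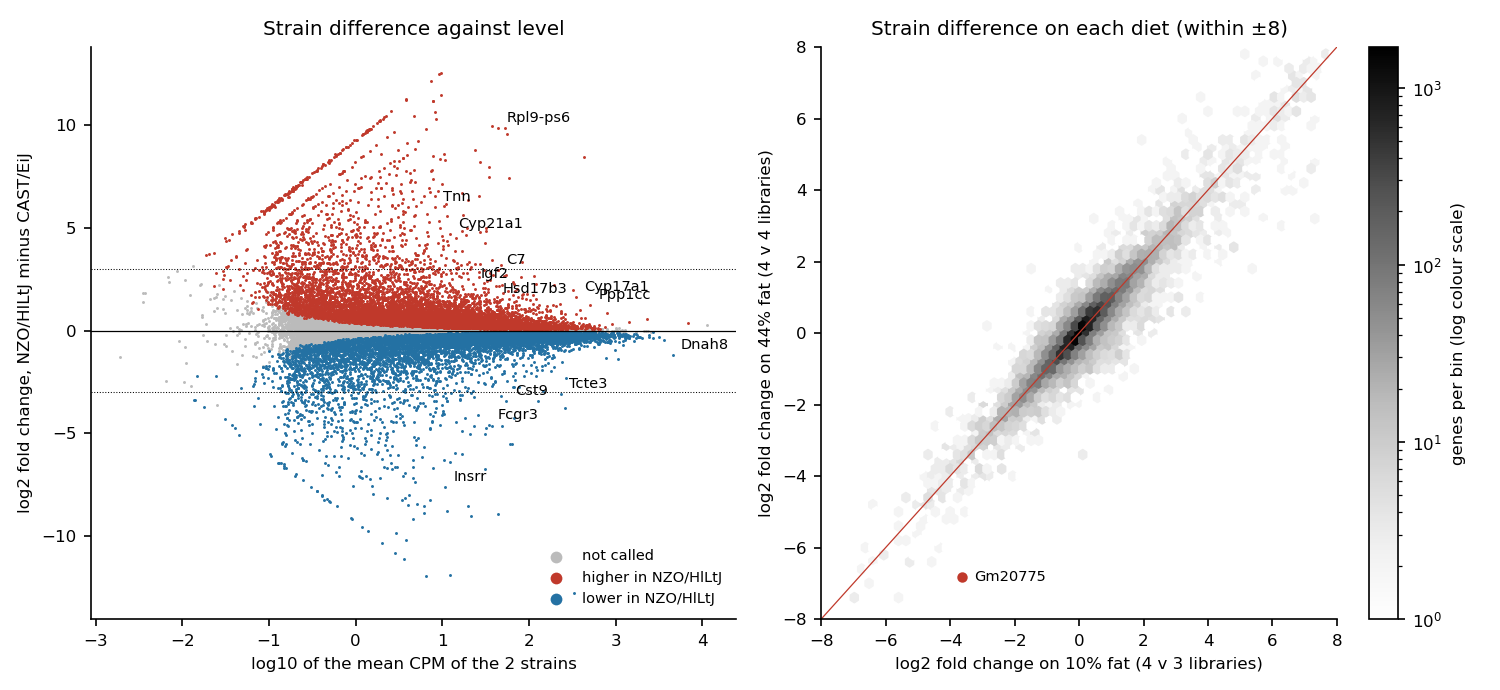
Left: log2 fold change of each gene (NZO/HlLtJ minus CAST/EiJ) against the log10 of the mean CPM of both strains, for genes with counts in either; dotted lines mark 8-fold, and names stand to the upper right of their points. Right: log2 fold change on 44% fat against that on 10% fat, with genes per bin on a log colour scale and the line of equal change. Changes on the diets lie along the line (r across genes 0.937), and Gm20775 lies off it.

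The steroid genes of Leydig cells did not move together. Of 22 Leydig cell genes tested, 15 were higher and 4 lower in NZO/HlLtJ, and the list's median log2 fold change was 0.73 against 0.06 over all genes; without the 3 libraries that stand apart the counts were again 15 and 4. Because tissue was measured in bulk, more cells of a type and more RNA per cell cannot be told apart here or below. Star, which carries cholesterol into the mitochondrion, stood at 44.7 to 136.9 CPM (median 64.9) in NZO/HlLtJ and 57.3 to 121.6 (median 72.9) in CAST/EiJ. Those ranges overlapped, and the difference was not called (log2 fold change -0.13 ± 0.182 SE, edgeR adjusted p = 0.522). Cyp11a1, which makes the first cut of the cholesterol side chain, was at 53.8 to 112.7 CPM (median 66.9) in NZO/HlLtJ and 111.9 to 180.9 (median 156.6) in CAST/EiJ. It was 2.01-fold lower in NZO/HlLtJ (edgeR adjusted p = 2.93e-07), with 1 library of each strain meeting at about the same level.

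Enzymes further along the path differed in both directions. Of the isozymes that make progesterone, Hsd3b1 was higher in NZO/HlLtJ (317.5 ± 29.1 against 67.6 ± 6.89 CPM) and Hsd3b6 lower (4.96 ± 1.496 against 32.0 ± 5.07 CPM), and these near copies summed to 322.4 ± 28.8 against 99.6 ± 9.002 CPM. Cyp17a1, which turns pregnenes into androgen precursors, was at 422.6 to 676.0 CPM (median 489.2) in NZO/HlLtJ and 123.3 to 214.0 (median 168.5) in CAST/EiJ, with C57BL/6J at 285.6 ± 51.2. Every NZO/HlLtJ library was above every CAST/EiJ library, 3.13-fold in the fit (log2 fold change 1.64 ± 0.097 SE, edgeR adjusted p = 5.3e-13). Hsd17b3, which makes testosterone in the last step, stood at 50.1 to 72.0 CPM (median 58.2) against 16.4 to 23.5 (median 20.3), 2.87-fold higher, while C57BL/6J was at 19.1 ± 1.13. Cyp21a1, a 21-hydroxylase best known from the adrenal, was at 23.8 ± 4.93 CPM in NZO/HlLtJ, 0.936 ± 0.143 in CAST/EiJ and 1.16 ± 0.248 in C57BL/6J. Its 25.9-fold difference was the widest among the steroid genes that this text names. Insl3, the Leydig hormone that guides testis descent, was 2.13-fold higher (174.2 ± 46.6 against 81.9 ± 12.99 CPM), and its sum with Jak3, whose transcripts overlap it, was 181.7 ± 47.6 against 99.3 ± 13.95. Nr5a1, the steroid cell regulator, and Prlr, the prolactin receptor, were 1.69-fold and 2.17-fold higher, and Akr1cl, an aldo-keto reductase, 2.26-fold. Lhcgr, the receptor for luteinizing hormone, chosen after its values were seen, was at 26.0 ± 3.40 CPM against 16.8 ± 2.02. Of the 29 genes of steroid synthesis and clearance, 15 were higher and 7 lower (15 and 7 without the 3 libraries).

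Cholesterol synthesis genes were mostly higher in NZO/HlLtJ: 18 of 29 were higher and 6 lower (18 and 6 without the 3 libraries), with a median log2 fold change of 0.54. Msmo1, a sterol methyl oxidase, stood at 48.4 ± 5.65 CPM against 14.7 ± 5.02 in CAST/EiJ, and Pmvk, a kinase of the mevalonate path, at 6.52 ± 0.601 against 1.61 ± 0.153. Stard4, a sterol carrier, was 1.98-fold higher. Sqle, the squalene epoxidase, went the other way, at 122.6 to 137.4 CPM against 147.3 to 168.0. Npc1, which moves cholesterol out of lysosomes, had the largest difference of the list, at 9.10 to 12.03 CPM (median 11.4) in NZO/HlLtJ and 60.9 to 71.9 (median 64.5) in CAST/EiJ. It was 5.95-fold lower in NZO/HlLtJ (edgeR adjusted p = 7.23e-21), and C57BL/6J, at 8.54 ± 0.641 CPM, lay near NZO/HlLtJ.

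**Figure D2:**
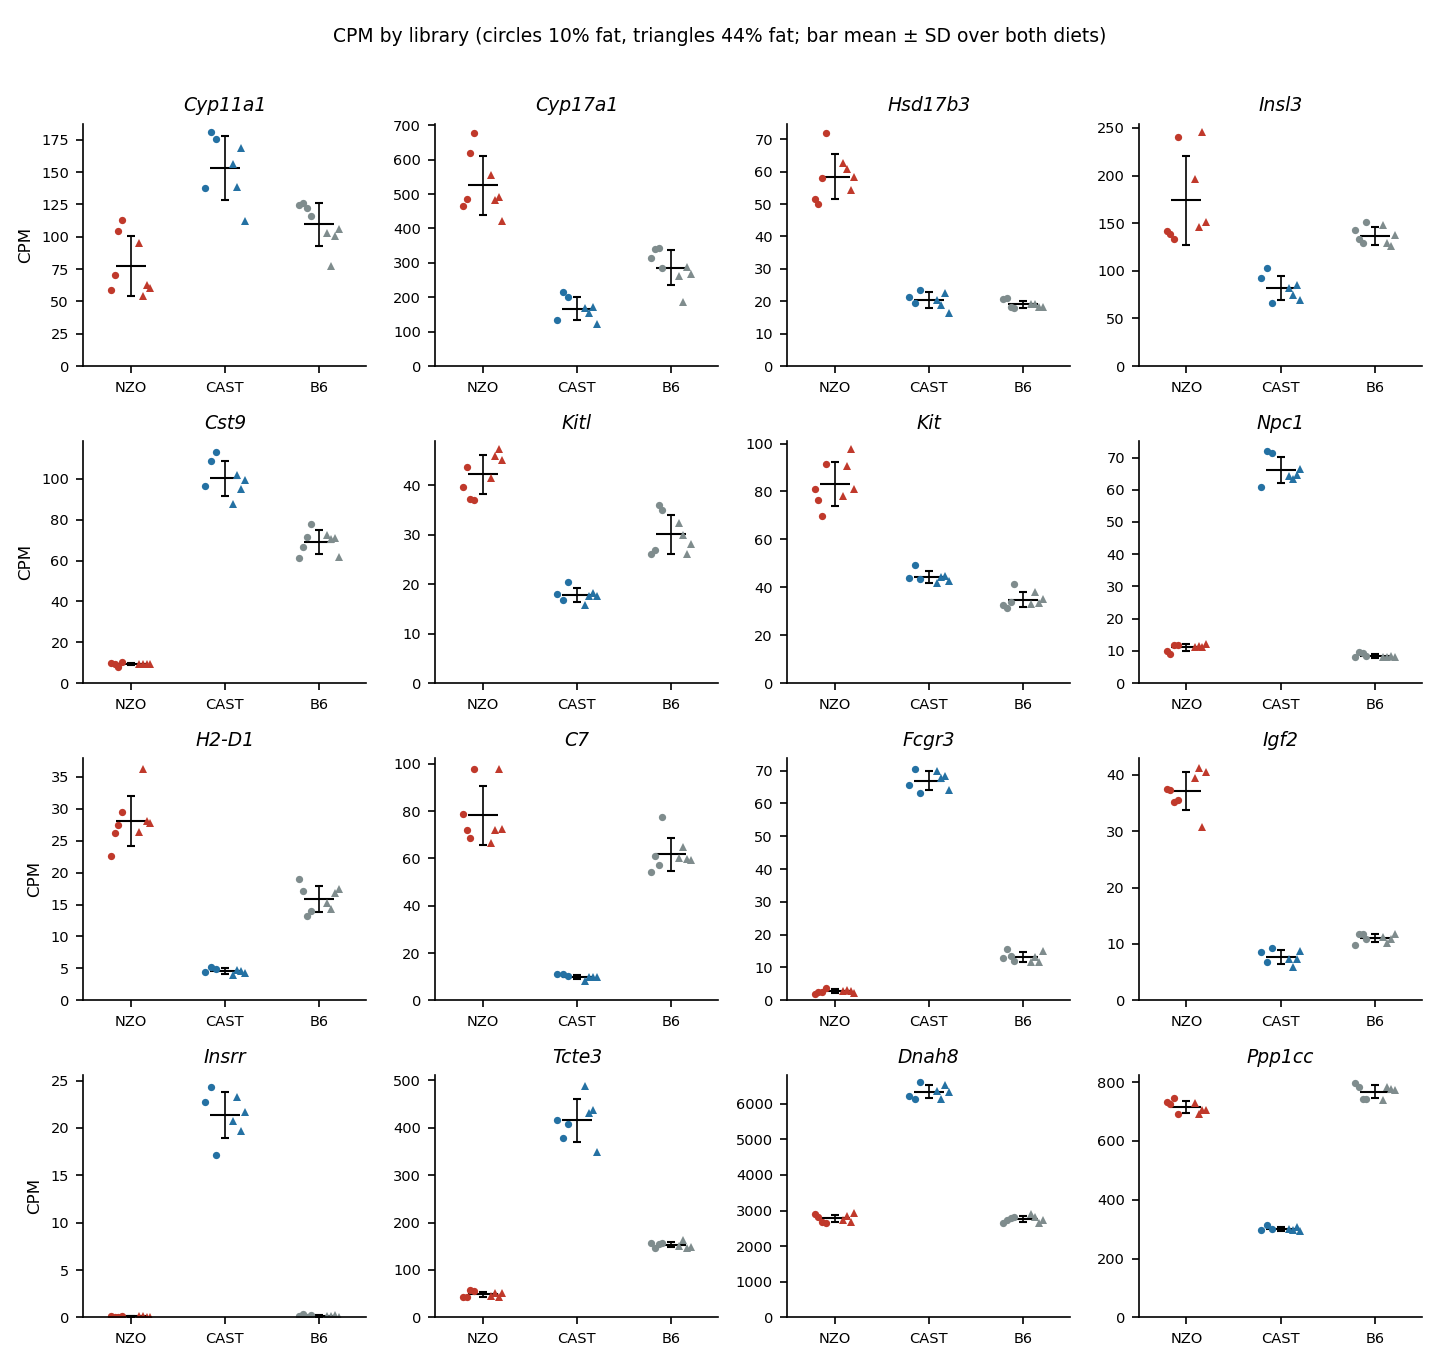
CPM of 16 genes in each library of NZO/HlLtJ (NZO, n = 8), CAST/EiJ (CAST, n = 7) and C57BL/6J (B6, n = 8), with mean ± SD over both diets; circles are 10% fat and triangles 44% fat. The strains do not overlap in 15 of the 16 panels for NZO/HlLtJ against CAST/EiJ, and Cyp11a1 is the exception. The panels were picked from genes named in the text. Over all genes tested, 43.9% did not overlap.

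Among Sertoli cell genes 17 of 30 were higher, 4 lower and 9 not called (median 0.26; 18 higher and 5 lower without the 3 libraries). The fate genes Sox9 and Wt1 were not called: Sox9 was at 22.3 ± 2.32 against 20.7 ± 1.495 CPM (edgeR adjusted p = 0.0821) and Wt1 at 48.8 ± 5.52 against 44.8 ± 2.11 (edgeR adjusted p = 0.0519). These 2 sat near the threshold: Sox9 passed it without NZO/HlLtJ replicate 1 of either diet (edgeR adjusted p 0.0193 and 0.0329), and Wt1 without any of 6 single libraries (NZO/HlLtJ replicates 1 and 3 on 10% fat, NZO/HlLtJ replicates 1 and 4 on 44% fat, CAST/EiJ replicate 3 on 10% fat and CAST/EiJ replicate 4 on 44% fat; edgeR adjusted p 0.0190 to 0.0429). Kitl, the ligand that supports spermatogonia through the receptor Kit, stood at 37.1 to 47.4 CPM (median 42.6) in NZO/HlLtJ and 15.8 to 20.5 (median 17.6) in CAST/EiJ. No library of one strain reached the other, and Kitl was 2.38-fold higher in NZO/HlLtJ. Kit itself, on differentiating spermatogonia, was 1.88-fold higher (69.7 to 97.7 against 41.6 to 49.5 CPM), so ligand and receptor were both higher. Fshr, the receptor for follicle stimulating hormone, was at 4.74 ± 0.708 against 2.51 ± 0.388 CPM, and Amh, the anti-Müllerian hormone, at 1.75 ± 0.545 against 0.934 ± 0.223. Trf, the iron carrier transferrin, which overlaps Gm20425, was 3.13-fold higher (sum of both 28.6 ± 5.49 against 15.8 ± 1.61 CPM) and Cldn11, a tight junction claudin of the blood-testis barrier, 1.37-fold. Cst9, a cystatin made by Sertoli cells, was among the 4 lower genes: 7.99 to 10.2 CPM (median 9.45) in NZO/HlLtJ and 87.9 to 113.2 (median 99.6) in CAST/EiJ, a 10.7-fold difference (edgeR adjusted p = 2.11e-23), with C57BL/6J at 69.2 ± 5.76.

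Early germ cell genes leaned to NZO/HlLtJ. Of 16 genes of undifferentiated spermatogonia 9 were higher and 5 lower (median 0.42; 9 and 5 without the 3 libraries), and of 12 genes of differentiating spermatogonia 7 were higher and none lower (6 and none). Lin28a, an RNA-binding pluripotency factor, Zbtb16 and Sall4, transcription factors of the stem cell pool, and Ret, a receptor for the Sertoli factor GDNF, were 2.17-fold, 2.03-fold, 1.86-fold and 1.80-fold higher. Gfra1, the co-receptor of Ret, was not called (9.40 ± 0.528 against 10.2 ± 0.458 CPM; edgeR adjusted p = 0.0779, and 0.0487 without NZO/HlLtJ replicate 4 on 10% fat), and Id4 and Lhx1, both tied to stem cell renewal, were 1.31-fold and 3.06-fold lower. Stra8, which opens the way into meiosis, was at 10.1 ± 1.52 against 7.07 ± 0.733 CPM.

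Meiotic genes were split, 13 of 32 higher and 11 lower (13 and 10 without the 3 libraries). Ankrd31, which helps to place meiotic breaks, stood at 55.9 to 75.8 CPM (median 69.3) against 21.5 to 26.0 (median 24.6) in CAST/EiJ, 2.83-fold higher. Meiob, which binds single-stranded DNA in recombination, was 1.61-fold higher, and Prdm9, which marks hotspots, 1.36-fold with overlapping libraries. Stag3, the meiotic cohesin subunit, was 1.58-fold lower at 476.6 to 507.2 against 745.3 to 809.4 CPM.

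From round spermatids on, most genes were lower in NZO/HlLtJ. In round spermatids 14 of 18 genes were lower and 2 higher (median -0.21; again 14 and 2 without the 3 libraries), in elongating spermatids 18 of 20 were lower and none higher (median -0.33), and the latter count was again 18 without the 3 libraries that stand apart. Spata16, needed to form the acrosome, was at 228.2 ± 8.26 against 351.1 ± 12.5 CPM. Prm1 did not differ beyond its spread (1178 ± 116.8 against 1248 ± 96.1 CPM, edgeR adjusted p = 0.117, and 0.0112 without NZO/HlLtJ replicate 3 on 10% fat), while Prm2, its partner protamine, was 1.23-fold lower (2459 to 3333 against 3401 to 3829 CPM). Of 57 genes of flagellum and axoneme 42 were lower and 7 higher (37 and 8 without the 3 libraries that stand apart). Tekt2, a filament protein of the axoneme, and Akap4, the scaffold of the fibrous sheath, were 1.56-fold and 1.29-fold lower. Among 38 genes of sperm ion channels and motility signalling 27 were lower and 4 higher (27 and 4 without the 3 libraries). Adcy10, the soluble adenylyl cyclase that starts motility, stood at 386.4 to 441.5 against 585.4 to 610.1 CPM, and Car2, a carbonic anhydrase, at 52.2 ± 6.38 against 117.3 ± 5.61 CPM. Ppp1cc, the phosphatase subunit of sperm motility, stood out at 689.7 to 746.4 CPM in NZO/HlLtJ and 292.2 to 314.5 in CAST/EiJ, with C57BL/6J at 767.0 ± 22.96. It shares 34.6% of its 100-base stretches with Gm5601 (named Ppp1ccb in the annotation), which went the other way (34.9 ± 9.67 against 484.0 ± 22.7 CPM). The sum of both was 750.6 ± 24.2 in NZO/HlLtJ and 785.1 ± 23.3 CPM in CAST/EiJ, so the copies together were not higher in NZO/HlLtJ. Of 57 acrosome and fertilization genes 35 were lower and 11 higher (32 and 12 without the 3 libraries). Izumo1, the sperm protein that binds the egg, was 1.47-fold lower, Adam21, a sperm surface ADAM protein, 2.11-fold lower, and Hyal4, a hyaluronidase family member, 7.20-fold lower (1.05 ± 0.252 against 7.54 ± 0.892 CPM). Hspb9, a small heat shock protein of germ cells, was 1.54-fold lower. Scaled by library totals, 10 round spermatid genes were lower and 3 higher (median -0.10), and 17 and 1 of elongating spermatids (median -0.22). The flagellum list then held 33 lower and 13 higher, the motility list 22 and 5, and the acrosome list 29 and 15. In the third run of ID numbers alone, 4 elongating spermatid genes were lower and 1 higher.

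**Figure D3:**
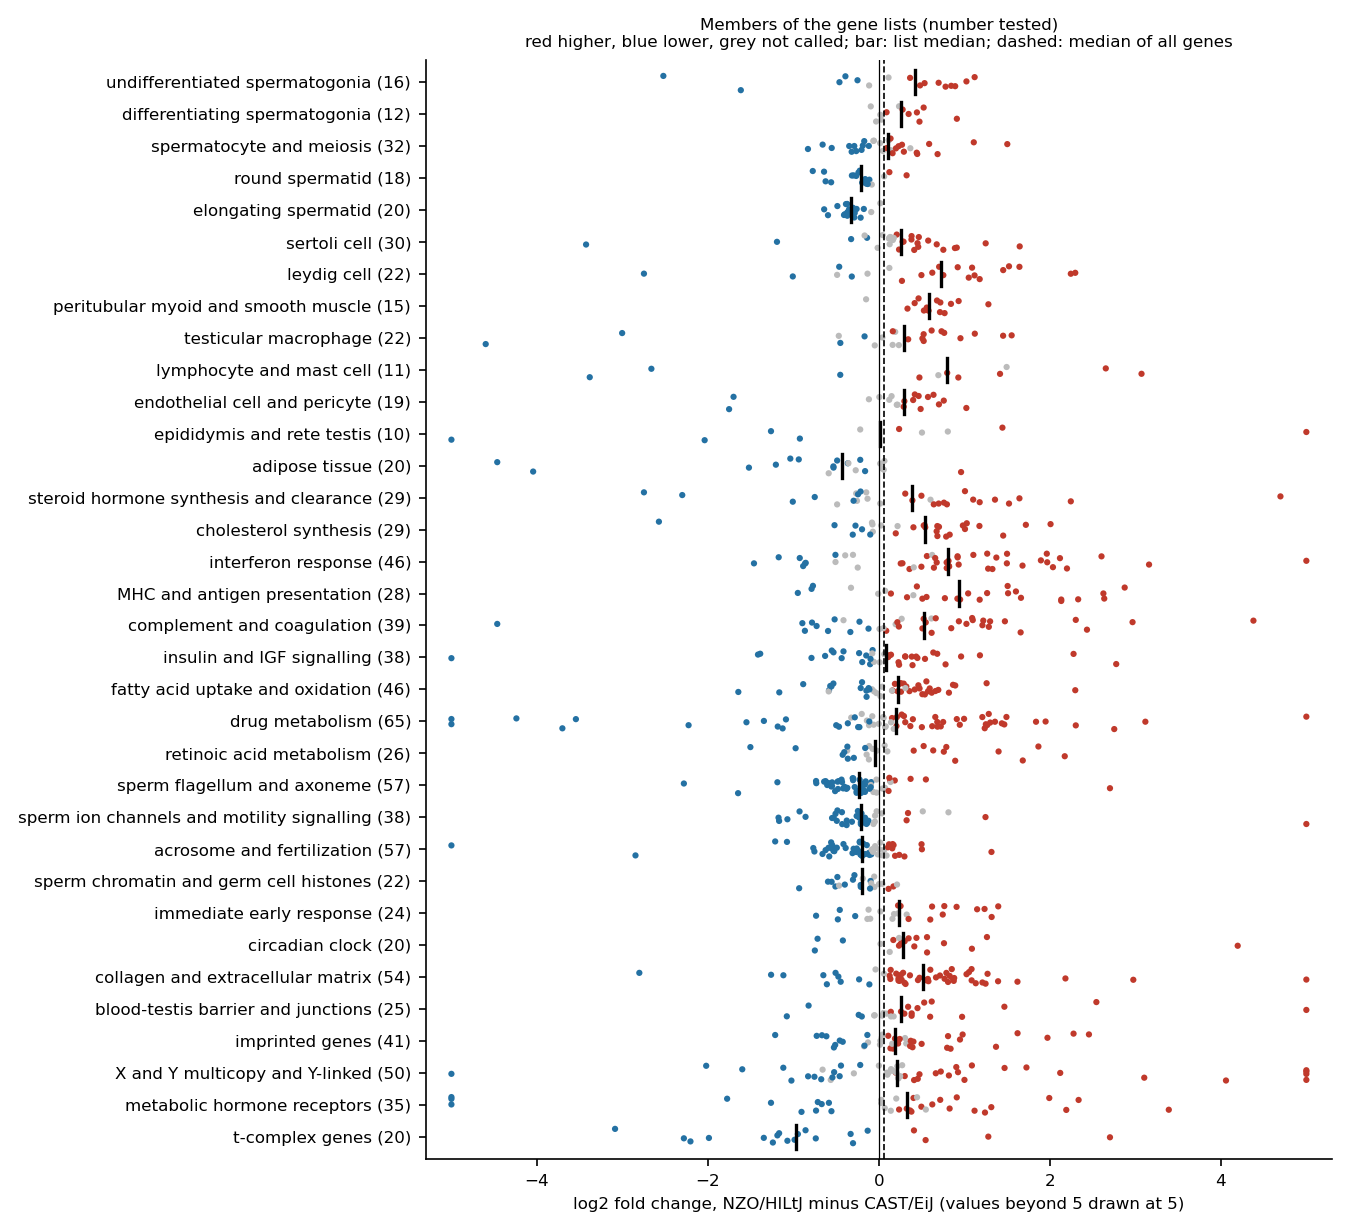
Log2 fold change (NZO/HlLtJ minus CAST/EiJ) of each tested member of 34 gene lists, with values beyond 5 drawn at 5; red points are higher, blue lower and grey not called, the bar is the list's median and the dashed line the median over all genes (0.06). Leydig, myoid, interferon and MHC medians lie at 0.58 to 0.93, and spermatid, flagellum and acrosome medians at -0.33 to -0.20. The t-complex list was chosen after values were seen.

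Genes of the tubule wall and matrix were higher. Of 15 genes of myoid and smooth muscle cells 14 were higher and none lower (14 and none also without the 3 libraries). The contractile genes Acta2 and Myh11 were both 1.47-fold higher, and Tpm2, a tropomyosin, 2.43-fold. Of 54 genes of collagen and matrix 42 were higher and 10 lower (38 and 10 without those libraries). Lama2, a laminin chain of the basement membrane, stood at 55.3 to 66.8 CPM against 32.8 to 34.6, and Col14a1, a fibril-associated collagen, was 4.54-fold higher. Tnn, the matrix protein tenascin N, was at 15.6 to 17.1 CPM (median 15.8) in NZO/HlLtJ and 0.125 to 0.438 (median 0.207) in CAST/EiJ, 64.6-fold apart, and at 0.146 ± 0.0738 in C57BL/6J. Fbln2, a fibulin, and Postn, periostin, were lower in NZO/HlLtJ, 6.97-fold and 2.17-fold.

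Endothelial genes were higher in 11 of 19 cases and lower in 2 (10 and 2 without the 3 libraries). Pecam1 and Cdh5, junction proteins of the vessel wall, were 1.63-fold and 1.56-fold higher and the pericyte gene Rgs5 2.03-fold, while Flt1, a receptor for vascular growth factors, was 3.37-fold lower (4.33 to 5.44 against 14.7 to 19.3 CPM). Testicular macrophage genes were higher in 12 of 22 cases and lower in 4 (10 and 5 without the 3 libraries). Csf1r, the receptor macrophages depend on, was 1.27-fold higher with overlapping libraries and the surface marker Adgre1 1.94-fold. Fcgr3, a receptor for antibody tails, was at 1.89 to 3.76 CPM (median 2.77) in NZO/HlLtJ and 63.1 to 70.4 (median 67.7) in CAST/EiJ, 24.2-fold lower in NZO/HlLtJ (edgeR adjusted p = 1.18e-22), and at 13.2 ± 1.47 in C57BL/6J. Apoe, the lipid carrier that macrophages and other cells secrete, was 2.93-fold higher.

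The interferon genes, which cells switch on to resist viruses, were among the most one-sided lists. Of 46 tested, 33 were higher and 7 lower (median 0.80), and 33 and 8 without the 3 libraries that stand apart. Stat2, a transcription factor that carries the interferon signal to the nucleus, was at 8.16 to 10.5 CPM in NZO/HlLtJ and 3.07 to 4.39 in CAST/EiJ. The GTPases Gbp7 (3.98 to 6.49 against 1.41 to 2.54 CPM) and Irgm1 (1.79 to 3.27 against 0.674 to 1.29 CPM) likewise did not overlap between the strains. Ifi202b, a DNA sensor of the interferon response, was at 2.49 ± 0.378 CPM in NZO/HlLtJ, 0.0510 ± 0.0499 in CAST/EiJ and 0.168 ± 0.0860 in C57BL/6J. Dhx58, a sensor of viral RNA, and Ifi35 were 1.81-fold and 2.75-fold lower in NZO/HlLtJ.

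Promoters of these genes were searched for the interferon-stimulated response element, spelled as GAAA, 2 bases of any kind and GAAA again, or on the other strand TTTC, 2 bases and TTTC, in the 300 bases from 250 before to 50 after each gene's start (RefSeq, GRCm38.p6). The element was found in 3.44% of 32851 promoters, in 3.58% of the 14455 tested genes with a promoter, and in 20 of the 34 list members with one (58.8%). Among the members with a promoter, 17 of the 27 that were higher and 1 of the 2 that were lower held it. Stat2, Gbp7 and Irgm1 are printed because they had the smallest p among members that were higher and held the element. They were thus chosen by their values and by having a match. Capitals mark each match (2 overlapping matches in Irgm1).
Stat2, chr10:128270248-128270547, plus strand: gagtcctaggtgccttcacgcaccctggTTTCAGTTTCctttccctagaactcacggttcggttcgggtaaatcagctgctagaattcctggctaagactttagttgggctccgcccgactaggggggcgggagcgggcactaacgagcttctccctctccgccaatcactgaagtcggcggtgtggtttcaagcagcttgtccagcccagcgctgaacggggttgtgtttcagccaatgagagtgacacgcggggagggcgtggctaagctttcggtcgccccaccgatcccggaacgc
Gbp7, chr3:142530086-142530385, plus strand: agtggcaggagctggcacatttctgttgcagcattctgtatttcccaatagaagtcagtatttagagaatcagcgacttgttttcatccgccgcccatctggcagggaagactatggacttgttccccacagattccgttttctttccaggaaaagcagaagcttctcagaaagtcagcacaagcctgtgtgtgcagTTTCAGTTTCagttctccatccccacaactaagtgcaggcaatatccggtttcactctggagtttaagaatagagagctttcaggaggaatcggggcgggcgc
Irgm1, chr11:48871371-48871670, minus strand: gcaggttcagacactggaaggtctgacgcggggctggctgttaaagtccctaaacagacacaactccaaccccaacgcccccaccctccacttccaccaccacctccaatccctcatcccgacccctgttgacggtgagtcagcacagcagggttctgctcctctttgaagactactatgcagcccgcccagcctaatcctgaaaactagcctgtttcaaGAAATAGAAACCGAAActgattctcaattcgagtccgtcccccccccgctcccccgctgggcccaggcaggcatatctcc
The match began 222 bases before the start in Stat2, 53 before in Gbp7 and 30 before in Irgm1. A match is a stretch of letters and no evidence of binding. In the same way the NR5A1 element CAAGGTCA (or TGACCTTG) was in 1.51% of tested genes with a promoter and in 0 of 17 Leydig cell promoters.

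Antigen presentation and complement genes were also mostly higher. Of 28 genes of MHC and antigen presentation 21 were higher and 3 lower (20 and 3 without the 3 libraries), with the highest median of the 34 lists plotted, 0.93. The class I gene H2-D1 stood at 22.6 to 36.3 CPM (median 27.7) against 3.90 to 5.20 (median 4.61), and Cd74, the chaperone of class II molecules, at 5.82 to 22.1 against 1.15 to 2.47 CPM. H2-T22, a non-classical class I gene, was 7.33-fold higher (summed with A930015D03Rik, with which it shares sequence, 5.24 ± 0.894 against 1.21 ± 0.219 CPM) and H2-Q4 1.93-fold lower. MHC genes differ in sequence between strains; the part of that in these values was not tested. The lymphocyte list, 6 of 11 higher and 3 lower (7 and 3 without the 3 libraries), summed to 10.7 to 13.7 CPM in NZO/HlLtJ and 6.39 to 8.17 in CAST/EiJ, with Ptprc at 2.65 ± 0.356 against 1.54 ± 0.347 and neither Ptprc nor Cd3e, both defining markers, at 0 in any library. The macrophage list summed to 502.8 to 606.0 against 450.4 to 505.8 CPM. Their part in the interferon and MHC differences was not tested. Of 39 complement and coagulation genes 23 were higher and 10 lower (21 and 9 without the 3 libraries). C7, a subunit of the membrane attack complex, was at 66.6 to 98.0 CPM (median 72.2) in NZO/HlLtJ and 8.33 to 10.97 (median 9.96) in CAST/EiJ, 7.82-fold higher (edgeR adjusted p = 1.78e-18). C2 and C1s1, proteases of the classical path, were 5.41-fold and 3.16-fold higher, and C8b, another subunit of the attack complex, was 1.72-fold lower.

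Genes of metabolic signals held some of the widest gaps. Insulin and IGF genes as a list were split (19 of 38 higher, 15 lower, median 0.09; 18 and 14 without the 3 libraries). Igf2, a growth factor expressed from the paternal allele, stood at 30.8 to 41.2 CPM (median 37.3) in NZO/HlLtJ and 5.84 to 9.32 (median 7.32) in CAST/EiJ, 4.85-fold higher, with C57BL/6J at 11.03 ± 0.758. Insrr, a receptor related to the insulin receptor, was at 0.0296 to 0.169 CPM in NZO/HlLtJ and 17.2 to 24.3 in CAST/EiJ, 198.7-fold apart, and at 0.158 ± 0.118 in C57BL/6J. Socs2, which damps growth hormone signals, was 2.66-fold lower, and Foxo1, a target of insulin signalling, 1.72-fold higher. Among metabolic hormone receptors 17 of 35 were higher and 11 lower (17 and 11 without the 3 libraries). The glucagon receptor Gcgr stood at 0 to 0.0701 CPM in NZO/HlLtJ against 4.26 to 6.05, and the melanocortin receptor Mc5r at 0 to 0.117 against 5.50 to 8.87 CPM. Both were near 0 in C57BL/6J as well (0.0466 and 0.110 CPM). The thyroid hormone receptor Thrb and the peptide receptor Vipr2 were higher, 2.36-fold and 10.5-fold. In the renin-angiotensin system, with 6 of 14 higher and 5 lower (7 and 6 without the 3 libraries), the angiotensin receptor Agtr1a was 18.9-fold higher (12.8 ± 1.55 against 0.661 ± 0.161 CPM), the peptidase Mme 3.47-fold higher, and Ren1, renin, 3.95-fold lower. Of 29 candidate genes for obesity and diabetes 11 were higher and 14 lower (8 and 14 without the 3 libraries). Tbc1d1, which regulates glucose uptake in muscle, was 1.77-fold lower, and Nnt, a mitochondrial enzyme of redox balance, 1.73-fold lower (52.9 to 57.7 against 88.6 to 99.3 CPM).

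Imprinted genes were higher in 22 of 41 cases and lower in 10 (18 and 9 without the 3 libraries). Asb4, in an imprinted cluster of chromosome 6, was at 54.2 to 67.2 CPM in NZO/HlLtJ and 10.1 to 12.1 in CAST/EiJ, and Ppp1r9a, in the same cluster, at 27.1 to 33.9 against 62.3 to 81.0 CPM. Mirg, a non-coding RNA of an imprinted cluster on chromosome 12, was 3.92-fold higher.

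Of 46 genes of fatty acid uptake and oxidation 25 were higher and 13 lower (23 and 13 without the 3 libraries). The list's median log2 fold change was 0.23, so the genes named next do not show its main direction. The acyl-CoA synthetases Acsl1 and Acsbg2 were 1.48-fold and 1.498-fold lower. Crat, the carnitine acetyltransferase of the acetyl shuttle, was at 663.8 ± 29.3 against 1291 ± 73.1 CPM. Sord, sorbitol dehydrogenase, was 1.61-fold lower (822.0 to 1037 against 1445 to 1605 CPM), with C57BL/6J above both at 2240 ± 67.9. In drug metabolism 34 of 65 genes were higher and 18 lower (33 and 19 without the 3 libraries). Ephx1, an epoxide hydrolase, was 2.36-fold higher, Gstm1, a glutathione transferase, 1.99-fold higher (517.3 ± 71.9 against 257.4 ± 11.2 CPM), and Cyp2c70, a bile acid hydroxylase of the liver, was at 0 to 0.0934 CPM against 9.37 to 10.96. The summed Gstm1 to Gstm7 counts were 1818 ± 115.3 against 1905 ± 37.8 CPM (exact 2-sided permutation test within diet, adjusted p = 0.0870), a difference that was not called with all libraries and was called without NZO/HlLtJ replicate 3 or 4 on 10% fat (exact test, adjusted p 0.0173 and 0.0295). Retinoic acid genes, which drive entry into meiosis, were split (10 of 26 higher, 8 lower; 10 and 10 without the 3 libraries): Rxra, a retinoid receptor, was 2.64-fold higher and Rarb, a retinoic acid receptor, 2.83-fold lower. Rarb shares 27.8% of its 100-base stretches with Top2b, a topoisomerase (65.8 against 43.05 CPM). Their sum was 66.7 ± 6.58 against 45.6 ± 3.69 CPM. Top2b makes up nearly all of that sum, so its direction cannot decide that of Rarb. The part of shared reads was not tested, and Rarb alone is uncertain. Genes of the circadian clock were higher in 14 of 20 cases and lower in 3, and in 10 and 3 without the 3 libraries that stand apart. Adipose genes, a check for attached fat, were lower in 12 of 20 cases and higher in 1 (10 and 1 without the 3 libraries); Adipoq, which fat cells secrete, was at 3.22 to 4.62 CPM in NZO/HlLtJ and 4.52 to 7.49 in CAST/EiJ.

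Junction genes held 2 large opposite differences. Dsg1a, a desmosomal cadherin, was at 48.1 to 60.2 CPM in NZO/HlLtJ and 0.120 to 0.752 in CAST/EiJ, and the sum of Dsg1a and Dsg1b stayed apart (56.9 ± 4.34 against 4.19 ± 0.390 CPM). Cdh2, the N-cadherin that ties germ cells to Sertoli cells, was 2.11-fold lower (90.1 to 99.8 against 196.1 to 208.6 CPM), and Jam2, a junctional adhesion molecule, 2.77-fold higher.

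The proximal part of chromosome 17 carries the genes of the t-complex, the region named for mouse haplotypes that distort transmission through sperm; several encode parts of the flagellum. A list of 20 such genes was drawn up after values of some of them were seen, and so carries no test as a list: 16 were lower in NZO/HlLtJ and 4 higher (16 and 4 also without the 3 libraries that stand apart). Tcte3, a dynein light chain, stood at 42.2 to 57.1 CPM (median 48.6) in NZO/HlLtJ and 348.2 to 488.1 (median 416.3) in CAST/EiJ, 8.49-fold lower, with C57BL/6J at 153.3 ± 5.81. Nearly all its 100-base stretches (99.6%) occur in other transcripts, 80.2% of them in Gm3448, which was at 2736 CPM in NZO/HlLtJ and 1870 in CAST/EiJ. Summed with Gm3448 and Ermard, which overlaps it, the values were 2833 ± 154.8 against 2334 ± 83.8 CPM, the opposite direction, so Tcte3 alone is uncertain. The dynein light chain copies Dynlt1a, Dynlt1b, Dynlt1c and Dynlt1f were 3.97-fold, 2.54-fold, 4.61-fold and 1.93-fold lower, and their sum was 749.9 ± 67.1 against 1919 ± 99.3 CPM. Tcte2 was at 98.7 to 109.5 against 230.7 to 253.9 CPM. Dnah8, a dynein heavy chain of the sperm tail, was at 2664 to 2923 against 6145 to 6600 CPM, the largest CPM difference of any gene lower in NZO/HlLtJ by at least 1.5-fold. Rsph3a and Rsph3b, near copies that encode a radial spoke protein, moved in opposite senses: Rsph3a was at 92.1 ± 4.14 against 448.2 ± 24.1 CPM and Rsph3b at 94.5 ± 5.55 against 14.3 ± 2.07. Their sum was still lower in NZO/HlLtJ, 186.6 ± 8.34 against 462.6 ± 24.5 CPM. Tcp1, a chaperonin subunit, was 1.33-fold higher. Of the near copies Tcp10a, Tcp10b and Tcp10c only Tcp10b was higher (2.43-fold), and their sum was 936.6 ± 20.7 against 1006 ± 21.7 CPM.

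**Figure D4:**
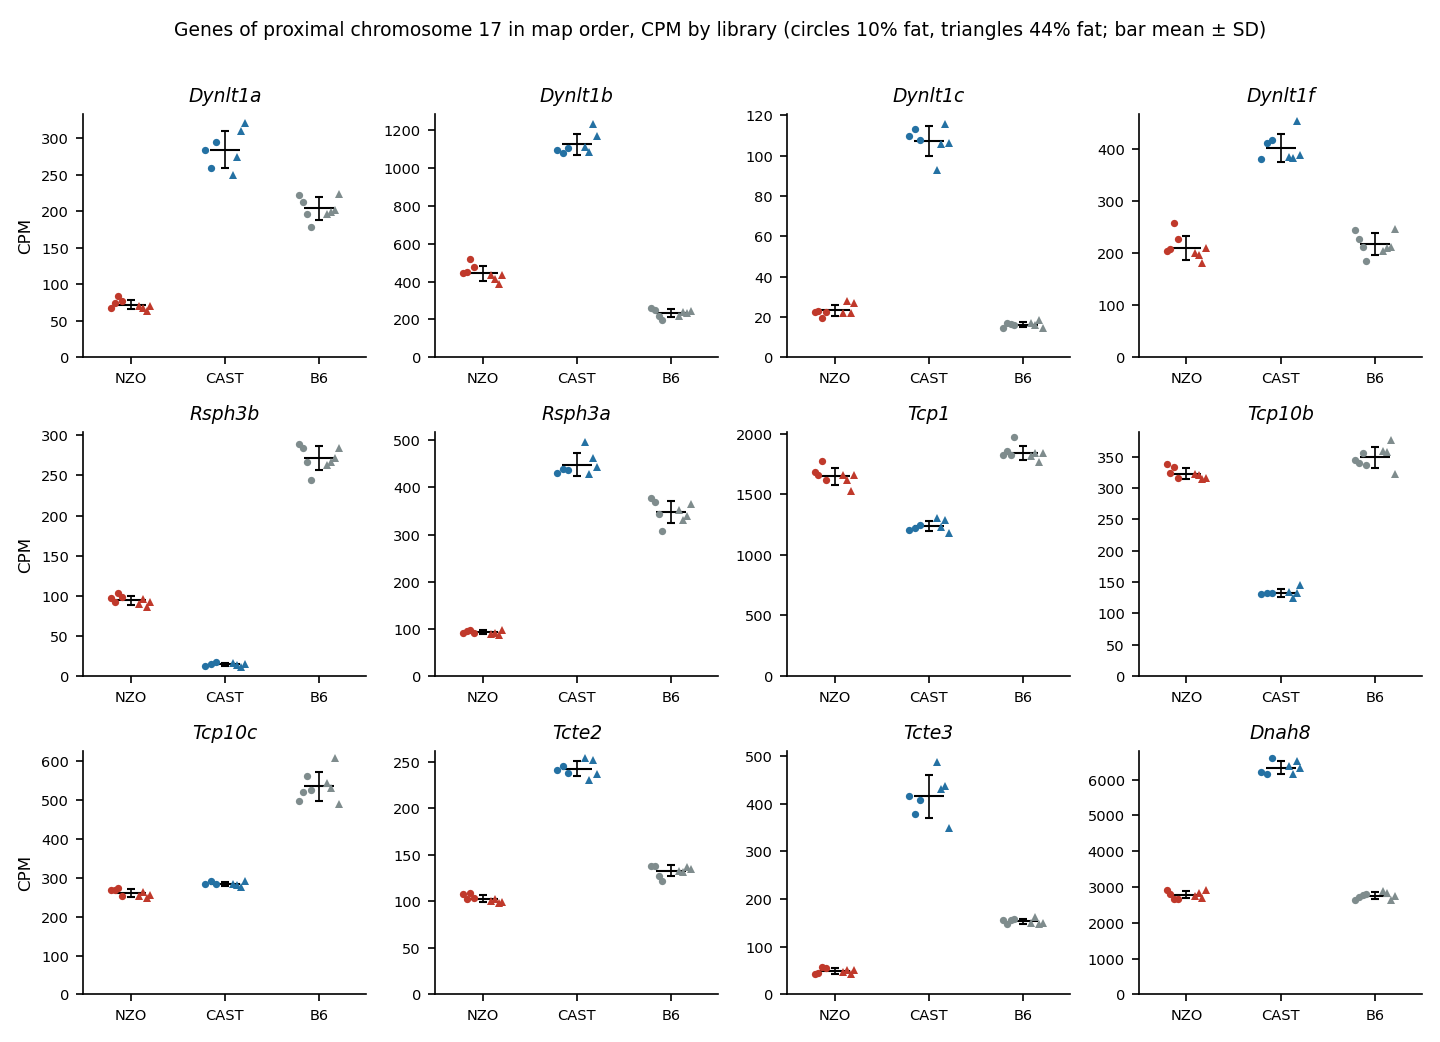
CPM of 12 genes of the proximal part of chromosome 17, in map order, in each library of NZO/HlLtJ (NZO), CAST/EiJ (CAST) and C57BL/6J (B6), with mean ± SD; circles are 10% fat and triangles 44% fat. NZO/HlLtJ lies below CAST/EiJ in all panels but Rsph3b, Tcp1 and Tcp10b, and C57BL/6J lies at NZO/HlLtJ's level in Dnah8 and above both in Rsph3b.

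On the sex chromosomes, the median log2 fold change was 0.17 over 984 genes of the X and 0.83 over 181 genes of the Y, where 46 genes stood 8-fold or more above CAST/EiJ and 4 as far below it. Many of these are multicopy genes expressed in spermatids. Zfy1 and Zfy2, Y-linked zinc finger copies, changed in opposite senses: Zfy1 was at 5.06 to 6.38 against 15.9 to 18.6 CPM and Zfy2 at 10.4 to 13.6 against 5.89 to 7.79. Their sum was lower in NZO/HlLtJ (17.7 ± 1.18 against 24.5 ± 1.35 CPM). The X-linked spindlin copies Spin2c to Spin2g summed to 39.9 ± 4.05 CPM in NZO/HlLtJ and 2.75 ± 0.425 in CAST/EiJ, and Slx with Slxl1, which act in the conflict of X and Y over spermatids, to 13.2 ± 0.980 against 1.98 ± 0.321. Slxl1 shares 69.6% of its stretches with other transcripts, and with 13 such genes its sum was 83.7 ± 6.12 against 72.2 ± 4.88 CPM. Within Samt1 to Samt4, Samt1 alone stood at 9.03 to 11.7 CPM against 0 to 0.116, yet the sum over the family was 20.1 to 23.8 against 19.6 to 22.1 CPM (exact 2-sided permutation test within diet, adjusted p = 0.426). Over 31 families of near copies, 23 sums differed at an adjusted p under 0.05 in that test, 12 higher and 11 lower; 0.000408 is the smallest p that its 2450 arrangements can give.

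Wide gaps at high levels were found in copies of ribosomal protein genes. A wider gap was found between mt-Co2, a mitochondrial gene of the respiratory chain (854.5 against 2.26 CPM), and its near copy Gm13341 (0.0950 against 669.0 CPM). Their sum was 854.6 ± 57.6 against 671.3 ± 95.3 CPM. However, mt-Co2 shares 15.04% of its stretches with Gm13341 and 99.49% with Gm28661 (1204 against 1175 CPM). With Gm28661 added, the sum was 2059 ± 113.8 against 1847 ± 136.0 CPM. The part of shared reads in these values was not tested, and mt-Co2 alone is uncertain. A retrocopy is a spliced messenger copied back into the genome, nearly identical to the coding sequence of its parent, so that reads can be placed on either. In 5 pairs, noticed in the data and given without a test of the pair, NZO/HlLtJ had its counts on the retrocopy and CAST/EiJ on the parent. Rpl9-ps6 stood at 82.9 to 97.7 CPM in NZO/HlLtJ and 0 to 0.270 in CAST/EiJ. Its parent Rpl9, a protein of the large ribosomal subunit, stood at 6.63 to 12.8 against 77.1 to 90.5 CPM. The copy was high where the parent was low, and copy and parent together came to 98.3 ± 5.41 against 85.4 ± 5.66 CPM. Rpl19-ps11 (112.3 against 0.152 CPM on average) and Rpl19 (17.4 against 115.7) summed to 129.7 ± 8.68 and 115.9 ± 4.87. Rpl27-ps3 with Rpl27 summed to 79.8 ± 7.75 against 65.8 ± 3.89 CPM, Rpl17-ps8 with Rpl17 to 121.2 ± 9.11 against 119.1 ± 6.36, and Rps12-ps3 with Rps12 to 64.1 ± 5.02 against 61.8 ± 2.98. These sums differed far less than the members. C57BL/6J followed the NZO/HlLtJ pattern, with Rpl9-ps6 at 88.1 and Rpl9 at 11.2 CPM.

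In 2 further pairs the copy held counts in CAST/EiJ and few in NZO/HlLtJ. Rps13-ps1 stood at 0.0283 to 2.10 CPM in NZO/HlLtJ and 57.1 to 67.2 in CAST/EiJ, and its parent Rps13, of the small subunit, at 101.9 to 128.9 against 21.03 to 25.8. Their sum was 112.7 ± 8.996 against 85.4 ± 3.73 CPM. Rpl37rt stood at 1.18 ± 1.17 against 40.7 ± 2.43 CPM and Rpl37 at 87.4 ± 8.18 against 47.7 ± 4.59, so CAST/EiJ counts were split between them. Rpl37rt and Rpl37 summed to 88.6 ± 9.02 and 88.4 ± 5.23 CPM. A scan of all symbols that mark a pseudogene copy found 108 copies whose parent was also tested. Of these, 30 were called in opposite directions to their parent, 10 of them with both members at least 2-fold apart. Over all genes tested 39.4% were called higher and 32.6% lower, so unrelated pairs are often called in opposite directions too. The 30 are therefore not read as a general exchange between parents and copies.

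**Figure D5:**
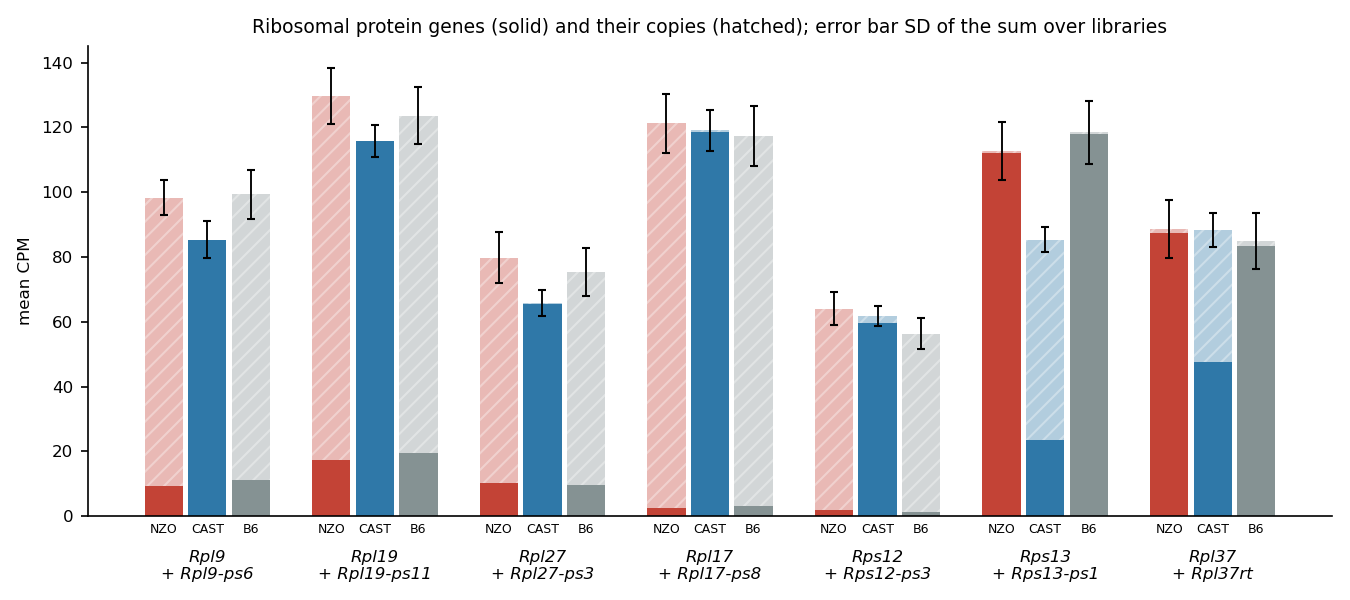
Mean CPM of 7 ribosomal protein genes (solid) stacked with a copy of each (hatched) in NZO/HlLtJ (NZO), CAST/EiJ (CAST) and C57BL/6J (B6); error bars are the SD of the sum over libraries. In the 5 pairs on the left NZO/HlLtJ and C57BL/6J are mostly hatched and CAST/EiJ solid, and in Rps13 and Rpl37 the hatched part is seen in CAST/EiJ.

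Within the coding sequence, little separates such a pair for a single 100-base read. For the parents below, 12.7% (Rps13) to 43.3% (Rpl19) of 100-base stretches over all their transcripts were found in another gene's transcripts. Reads came in pairs, and the part of the second read in placing them was not tested. Over the coding sequence (GENCODE M21, GRCm38) Rpl9 and Rpl9-ps6 were identical at 575 of 576 bases, Rpl19 and Rpl19-ps11 at 587 of 588, Rpl27 and Rpl27-ps3 at 408 of 408, Rpl17 and Rpl17-ps8 at 550 of 552, Rps12 and Rps12-ps3 at 396 of 396, and Rps13 and Rps13-ps1 at 451 of 453. For 3 pairs 100 coding bases are printed, 1 read's length, with capitals at the bases that differ (1 in the Rpl9 pair, none in the Rps12 pair, 2 in the Rps13 pair). Parents are spliced, so their span in the genome is longer than the stretch.
Rpl9, chr5:65389554-65390430, minus strand: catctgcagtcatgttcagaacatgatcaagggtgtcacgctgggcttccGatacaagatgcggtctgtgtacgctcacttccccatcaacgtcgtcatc
Rpl9-ps6, chr19:32466237-32466336, minus strand: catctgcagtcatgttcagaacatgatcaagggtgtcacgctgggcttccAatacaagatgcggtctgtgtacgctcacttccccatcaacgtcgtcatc
Rps12, chr10:23786795-23787007, minus strand: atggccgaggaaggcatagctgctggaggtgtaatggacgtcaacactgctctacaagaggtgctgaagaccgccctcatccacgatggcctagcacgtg
Rps12-ps3, chr19:59322371-59322470, plus strand: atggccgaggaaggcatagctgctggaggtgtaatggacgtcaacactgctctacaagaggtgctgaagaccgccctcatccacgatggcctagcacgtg
Rps13, chr7:116331553-116332447, minus strand: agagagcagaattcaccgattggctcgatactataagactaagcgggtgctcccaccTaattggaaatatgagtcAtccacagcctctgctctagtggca
Rps13-ps1, chr8:87048073-87048172, plus strand: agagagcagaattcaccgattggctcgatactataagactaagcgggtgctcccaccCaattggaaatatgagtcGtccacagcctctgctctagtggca
A read from the printed Rps12 stretch carries no base that tells it from Rps12-ps3 in this genome.

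Shared sequence was more frequent among the widest differences. At least 50% of a gene's 100-base stretches were found in another gene's transcripts for 6.76% of 22755 tested genes with a transcript, 25.4% of the 889 at least 8-fold higher, 21.4% of the 429 at least 8-fold lower and 3.30% of the called genes less than 2-fold apart. Of the 174 genes named here that have a transcript, 42 shared at least 25% of their stretches. Sums over such genes given here, apart from the 31 families, were chosen after values were seen. Igf2 (59.3% shared), Nnt (46.1%) and C2 (37.1%) shared theirs mostly with genes that were not tested. No sum is given for them, and the part of shared reads in their differences was not tested. Among pseudogenes 13.03% stood 8-fold or more above CAST/EiJ and 8.10% as far below it, against 2.10% and 1.29% of protein coding genes. At a mean under 1 CPM 13.4% of genes were at least 8-fold apart, and at 100 CPM or more 0.209% were. How the authors treated strain variants when they placed reads is not stated in those sources that were used here, and its part in these differences was not tested.

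Among official symbols with at least 5 CPM in the higher strain, the widest fold changes outside the groups above included Mog, a myelin glycoprotein (5.57 to 6.68 against 0 to 0.0300 CPM), Pdzph1 (8.36 to 11.1 against 0 to 0.129 CPM), Klrb1, a lectin-like receptor of lymphoid cells (13.5 to 15.6 against 0.0259 to 0.180 CPM), and the histone copy Hist2h2aa2 (68.5 to 81.4 against 0 to 0.188 CPM). The histone sum with Hist2h2aa1 was in the other direction, 117.6 ± 7.16 against 198.4 ± 11.9 CPM. On the other side stood the antisense RNA Itpr3os (0 to 0.0279 against 22.8 to 29.0 CPM, 1 count in all NZO/HlLtJ libraries together; whether counting used the strand is not given, so its reads and those of Itpr3 may not be separate), the vomeronasal receptors Vmn2r6 and Vmn2r7 (0 to 0.0722 against 7.39 to 9.24 and 0 to 0.0279 against 5.67 to 6.42 CPM), Reg3g, an antibacterial lectin (0 to 0.0963 against 7.69 to 8.74 CPM), and Zfp663 (0 to 0.0811 against 5.09 to 8.02 CPM). C57BL/6J had 14.7 CPM of Klrb1, 10.3 of Pdzph1, 20.7 of Vmn2r7 and 27.1 of Itpr3os, but 0.0556 of Mog and 0.0821 of Reg3g. Bhmt, which remethylates homocysteine, and Slit2, a guidance ligand, both chosen after their values were seen, were 9.99-fold and 9.47-fold higher (152.9 ± 24.6 against 15.1 ± 3.80 and 42.9 ± 2.06 against 4.56 ± 0.390 CPM). Fkbp10, a collagen chaperone also chosen so, was at 5.56 to 7.45 CPM in NZO/HlLtJ and 115.2 to 141.7 in CAST/EiJ.

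Most genes that differed on one diet also differed on the other. On 10% fat alone (4 against 3 libraries) 12634 genes differed (55.2%), and on 44% fat alone (4 against 4 libraries, none shared with the former) 15035 did (65.7%). Both sets held 11490 genes, of which 11488 differed in the same direction, 90.9% of the calls on 10% fat and 76.4% of those on 44% fat. The log2 fold changes on the diets correlated with r = 0.937 across genes, which are not independent replicates. A test of the difference between diets called 1 gene in edgeR (0.00437%), with 1808 genes at an unadjusted p under 0.05. DESeq2 called 2 and limma on the authors' log2 values 0, and the edgeR count was 3 without NZO/HlLtJ replicate 4 on 10% fat, 2 without CAST/EiJ replicate 2 on 10% fat or replicate 3 on 44% fat, and 1 with each other library left out in turn. The gene called with all libraries was Gm20775, a gene of the Y chromosome (edgeR adjusted p = 0.00528, and 0.000413 to 0.0389 with single libraries left out). In NZO/HlLtJ it stood at 1.07, 1.90, 0.872 and 2.17 CPM on 10% fat and at 0.0540, 0.257, 0.0296 and 0.251 CPM on 44% fat. In CAST/EiJ it lay at 16.5 CPM or more in all 7 libraries, so the strains were apart on both diets and the NZO/HlLtJ diets did not overlap. The gene shares 75.3% of its 100-base stretches with Rmi1, a genome stability gene on another chromosome (72.8 CPM in NZO/HlLtJ and 49.7 in CAST/EiJ), and the genes together came to 73.6 ± 3.01 against 67.8 ± 3.93 CPM. By symbol, the difference in Cyp17a1 was 1.62 on 10% fat and 1.67 on 44% fat on the log2 scale, in Kitl 1.09 and 1.38, in Cd74 2.05 and 3.07, in Npc1 -2.67 and -2.49, and in Tcte3 -3.005 and -3.16.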

How the data were processed

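PolyA RNA of testis was made into libraries with a KAPA mRNA HyperPrep kit and read as 100-base pairs, per the labels' protocols. The authors deposited estimated counts per gene (23.19% of the values are not whole), log2 values and gene positions; GRCm38 and DESeq2 are named in the submitters' processing notes, and the aligner, the counter and the annotation release are not stated in any source used here. The authors' log2 values entered only 1 alternative. Here, counts were rounded to whole numbers, genes were filtered with filterByExpr over the 6 groups and TMM factors were taken from all 23 libraries. NZO/HlLtJ was compared with CAST/EiJ by edgeR's quasi-likelihood F test (edgeR 4.0.16, R 4.3.3) on 15 libraries with diet as an additive term, and p-values were adjusted over 22873 genes by Benjamini-Hochberg; a gene is called at an adjusted p under 0.05. Each diet was also fitted alone, and a strain by diet term was tested. The fit was tested on simulated data in which few genes were changed. That simulation does not cover scaling where most genes differ, as here. SE is that of the fitted log2 fold change. CPM were scaled with the TMM factors. Sums over near copies were compared by an exact 2-sided permutation test within diet, adjusted over 31 families. Samples were grouped by the strain and diet in their titles; 21 pairs of libraries of the same group all differed beyond sampling noise (chi-square per degree of freedom 3.39 to 18.6). Alternatives were other scalings, filters and tools (limma 3.58.1, DESeq2 1.42.0), each run of ID numbers, each library left out and, added after the data were seen, 3 libraries left out together. Members and lists were chosen with earlier results of these data known. Named genes are, per direction, 12 of the largest fold changes at 5 CPM or more without overlap and 10 of the largest CPM differences at 1.5-fold or more, up to 4 called members per list in its main direction and up to 2 in the other, defining markers, and near copies; of the 340 genes so named those that describe a group are given, and exceptions are marked; a few are not reported here. Sequences are from GENCODE M21 and RefSeq on GRCm38; 99.49% of gene IDs matched M21.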

Additional observations from a re-analysis of the deposited data

Results flagged for a closer look

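In groups of 4 libraries, 522 sets of values (1 gene, or the library totals, in 1 group) were searched for a library far from its other 3, and 36 held one; chance gives about 1 in 20. Where the other 3 libraries held 0, any count in the remaining one was flagged, however low. In NZO/HlLtJ on 44% fat this was so for Itpr3os, Reg3g, Vmn2r7, Zfp663 and Crisp1. In CAST/EiJ on 44% fat it was so for Hist2h2aa2 and Samt1. The CAST/EiJ 10% fat group, with 3 libraries, was not searched. The library total of CAST/EiJ replicate 1 on 44% fat was 78.7 M (M, 1000000 counts) against 35.1 M to 39.4 M in the other 3.

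NZO/HlLtJ replicate 4 on 10% fat held 8 of the 36, among them genes of Leydig cells. Insl3 was at 241 CPM there against 133 to 142 in the other 3 libraries, with Jak3, which overlaps it, at 9.05 against 6.24 to 6.57. Hsd3b1 was at 353.9 CPM (280.8 to 286.4 in the others). Akr1cl was at 256 CPM (195 to 205 in the others) and Trf at 14.8 (8.61 to 8.81). Acsl1 was low at 569 CPM (698 to 713), as was Samt1 at 9.03 (10.98 to 11.33), and Vmn2r6 stood at 0.0722 CPM.

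In the other NZO/HlLtJ libraries on 10% fat, replicate 3 stood apart with Hspb9 at 344 CPM, Tekt2 at 296, Samt4 at 3.38, Rps13-ps1 at 1.21 and, on the low side, Dynlt1c at 19.7, and replicate 1 with C8b at 11.04. On 44% fat, replicate 3 held more RNA of the Sertoli gene Cldn11 (97.3 CPM against 77.8 to 79.8) and 0.207 CPM of Crisp1 against 0. Replicate 1 stood apart with Msmo1 at 43.6, Samt4 at 2.95 and Zfp663 at 0.0811 CPM, replicate 2 with H2-D1 at 36.3, Rpl9 at 12.8 and Rps13-ps1 at 2.10 CPM, and replicate 4 with Rpl37 at 88.8, Itpr3os at 0.0279, Reg3g at 0.0279 and Vmn2r7 at 0.0279 CPM.

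In CAST/EiJ on 44% fat, replicate 2 held Crisp1 at 99.0 CPM against at most 0.0796 in the other 3, the lymphocyte gene Ptprc at 1.86 against 1.19 to 1.30, and the macrophage gene Adgre1 at 2.35 against 2.77 to 2.84. Replicate 1 stood apart with C7 at 8.33 and Hist2h2aa2 at 0.0796 CPM, replicate 3 with Dynlt1f at 453 and Vmn2r7 at 6.42 CPM, and replicate 4 with Dsg1b at 4.12 and Samt1 at 0.116 CPM. No strain difference named here as called was lost when a single one of these libraries was left out, other than that of Crisp1.

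The strain difference of Gm20775 depended on diet: it lay further below 0 on 44% fat, by -3.18 on the log2 scale (NZO/HlLtJ minus CAST/EiJ, 44% minus 10%; edgeR interaction test, adjusted p = 0.00528).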

How the results depend on the processing

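The count of genes that differed (16460) stayed within 1.5 times except with a test against a 2-fold limit (3644 genes) and in the third run of ID numbers alone (7722, 2 libraries of each strain); with single libraries left out it was 16076 to 16410. On 10% fat those settings gave 2960 and 7724 genes, and on 44% fat the 2-fold limit gave 3346; with single libraries left out the counts were 11174 to 12254 and 14208 to 14704. The count of genes at least 8-fold apart was 1337 to 1354 with single libraries left out. It was 597 at a mean of at least 1 CPM, where fewer genes were tested. Limma on the authors' log2 values gave 20, but those values are variance-stabilised, so an 8-fold limit on them is an unlike measure. The cause of the lower counts was not tested. Genes whose strain difference depended on diet numbered 0 with the 2-fold limit, 0 with all 23 libraries, 0 by limma, 2 by DESeq2, 3 without the 3 libraries that stand apart and 1 to 3 with single libraries left out. Sums over near copies passed in 0 families on 10% fat alone, where 35 arrangements can give no p under 0.0286 (adjusted p at least 0.0554), and in 22 to 25 with single libraries left out. Scaling by library totals moved the share of calls that were higher in NZO/HlLtJ from 54.7% to 64.5%. It also moved the sums of Rpl9, Rpl19 and Rpl17 with their copies to log2 differences of 0.31, 0.27 and 0.13, and called the sum of Samt1 to Samt4 (log2 difference 0.15, adjusted p = 0.00301 in the exact test).

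For the 174 genes named here, the test against a 2-fold limit was not followed gene by gene. Under the other alternatives no called gene changed direction, and 4794 of 4864 values kept their direction and call. Calls were lost in the first run for Adipoq, Cd3e, Crisp1, Csf1r, Dsg1b and Gm20425, in the second for Cd3e, Pecam1 and Tcp10c, and in the third for Cd3e, Crisp1, Dsg1b and Tcp10c again and for Amh, Id4, Itpr3, Meiob, Prdm9, Prm2, Ptprc, Ret, Samt4, Stra8 and Top2b; the cause was not tested. Scaling by totals called Sox9 and Wt1, and DESeq2 called Gfra1 and Prm1 (adjusted p = 0.0200 and 0.0450). No paired analysis was possible because the columns carry no replicate numbers and the numbers used here follow accession order. Low levels limit what can be told of genes listed at 0, and shared sequence limits single members of gene families.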
